A study of Mus musculus with 12 samples.

Results

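Complement components and anaphylatoxin receptors were followed here in mouse cecum through 8 genes: C3, C4b, C2, Cfb, Cfp, C6, C3ar1 and C5ar1. The members were chosen by name, as every non-control probe whose gene name in the array files was one of these 8, which gave 12 of the 56605 probes on the array and 8 of its 37549 genes, where a probe without a gene name counts as a gene of its own. C3, C4b, Cfb and Cfp had 2 probes each and the other 4 genes had 1. The arrays were run on total RNA of cecum tissue from C57BL/6 mice, labelled male, that had either a sham operation or cauterization of the cecum, an injury after which peritoneal adhesions form. The 4 groups of 3 arrays were sham and the injured cecum at 3, 12 and 72 h. The sham tissue was taken at 0 h, so no sham group matched the later times. The age of the mice was not given. The study calls the 3 samples of a group biological triplicates and does not say more of the animals behind them, so the p-values measure the spread between samples.

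Complement is a cascade of plasma proteins and cell-surface receptors that marks microbes and damaged cells for removal. The classical and lectin pathways cut C4 and C2, and the alternative pathway uses factor B and properdin; all of them build enzymes called convertases that cut C3. The pieces released from C3 and C5 are the anaphylatoxins, which act on myeloid and other cells through C3ar1 and C5ar1, and the terminal components including C6 assemble a pore in the target membrane. The liver makes most of the plasma proteins, while macrophages, fibroblasts and epithelial cells make some of them locally.

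Before the results, the sample labels were checked against sex-linked genes. Xist, which is transcribed from the inactive X chromosome in females, was well above background on all 12 arrays, at log2 levels from -1.32 to -0.50. The Y-linked genes Ddx3y and Eif2s3y were above background on 0 arrays, and Uty on 1, sham replicate 3. One probe of the Y-linked gene Kdm5d was above background on 12 arrays and its other 5 probes on 0. These values go against the label male in all 4 groups alike, and the comparisons below do not use sex. Markers of the labelled tissue were present, since all 8 epithelial and all 5 smooth muscle markers were well above background on all 12 arrays.

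All levels below are log2 intensity after subtraction of the array's 75th percentile, so a level can be negative, and the level of one probe cannot be set against that of another. A gene was called when limma, fitted to all 12 arrays and adjusted over all 56605 probes, gave a fold change above 2 with an adjusted p below 0.05. Where a gene had several probes, the one with the highest mean level stood for it. The 3 comparisons against sham share the same 3 sham arrays. The first slide held the sham and 3 h arrays and 12 h replicates 1 and 2, and the second held 12 h replicate 3 and the 72 h arrays, so slide and time can be separated at 72 h only through 1 array.

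The members and the lists below were chosen with earlier results of these data known, so the share of all genes beside a count is no test of them. In the main fit, which has no slide block, most members were called at 72 h and few before. At 3 h after cauterization 1 of 8 members was called higher, C5ar1, where 3.13% of all genes were called higher and 4.3% lower. At 12 h 2 of 8 were called higher, C5ar1 and Cfp, beside 3.95% of all genes higher and 5.3% lower. At 72 h 7 of 8 were called higher, all but C2, beside 4.5% of all genes higher and 4.4% lower. With the slide as a block in the fit 3 of 8 stayed called at 72 h, C3ar1, C5ar1 and Cfp, beside 3.08% of all genes in either direction. The 72 h calls of C3, C4b, Cfb and C6 against sham, given below, hold without the block only. No member was called lower at any time. With the normexp background correction more of all genes were called higher than lower at 3 h (617 and 216) and at 12 h (800 and 554), the reverse of the balance above. The median log2 difference of the members from sham was 0.02, 0.74 and 1.59 at the times 3, 12 and 72 h. Over all genes the medians were 0.06, -0.04 and -0.15.

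Between the times after injury, C3 and C5ar1 were higher at 12 h than at 3 h, 2 of 8 members, where 1.84% of all genes were called higher and 1.58% lower. From 12 to 72 h, C2, C3ar1, C4b, C6 and Cfp rose, 5 of 8 members, beside 4.46% of all genes called higher and 2.93% lower. With the slide as a block C2 and Cfp lost that call. All 8 members were called higher at 72 h than at 3 h, although C6 was above background on only 1 array at 3 h, beside 6.22% of all genes higher and 5.26% lower. With the slide as a block 2 of 8 stayed called there, C3 and C3ar1. The second probes of C4b (0.92) and Cfb (1.0) were not called from 3 to 72 h, nor was C5ar1 with normexp (0.97). The members' median log2 differences in these 3 comparisons were 0.63, 1.42 and 1.81, and those over all genes were -0.13, -0.12 and -0.25.

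**Figure D1:**
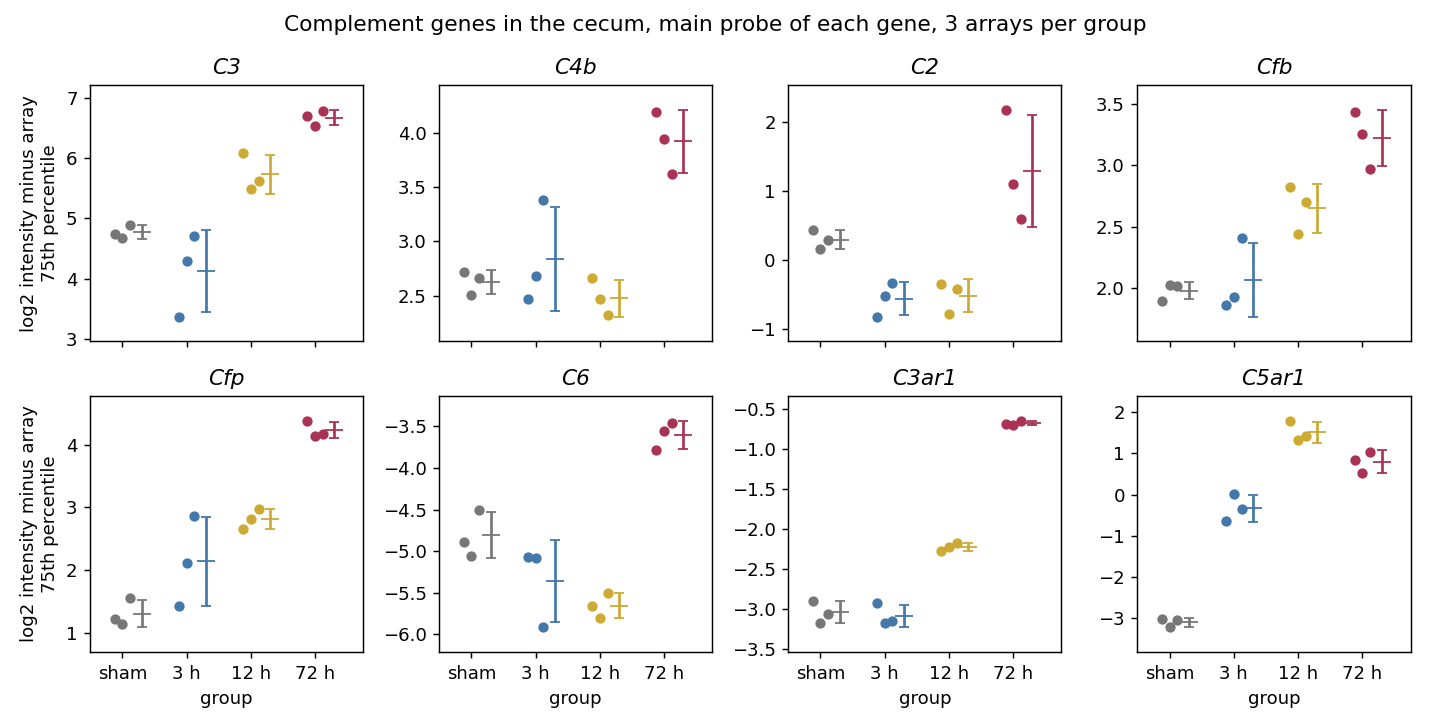
Levels of the 8 complement members in each of the 12 arrays, as log2 intensity minus the array's 75th percentile, for the probe with the highest mean level. Each dot is 1 array, replicates 1 to 3 from left to right, and the bar beside the dots is the mean with its SD over 3 arrays. The vertical scale differs between the genes, whose levels cannot be set against each other.

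C3 is the protein on which all pathways of activation meet. Its level in replicates 1, 2 and 3 was 4.74, 4.68 and 4.88 in sham, 3.37, 4.29 and 4.70 at 3 h, 6.09, 5.48 and 5.62 at 12 h, then 6.70, 6.53 and 6.78 at 72 h. Every array at 12 and 72 h lay above every sham array, and 3 h replicate 1 lay lowest of all. The 72 h mean was 6.67 ± 0.13 (SD, n = 3) against 4.77 ± 0.11 in sham, a 3.74-fold rise with a 95% interval of the log2 difference from 1.26 to 2.55 (limma adjusted p = 0.00177). At 12 h the log2 difference from sham was 0.96, or 1.95-fold (limma adjusted p = 0.0395), and at 3 h it was -0.65 (limma adjusted p = 0.154). Neither passed both thresholds, although with normexp the 12 h difference was 1.02 and was called (limma adjusted p = 0.0177). The step from 3 to 12 h, 3.05-fold, passed both (limma adjusted p = 0.00986). The order of the group means was 3 h, sham, 12 h and 72 h, and the neighbours 3 h and sham (their arrays overlapped), sham and 12 h, and 12 h and 72 h were not called different by the main probe. The second C3 probe did pass for 72 h against 12 h, at 2.01-fold (limma adjusted p = 0.0447), and with quantile normalization the main probe did too, with a log2 difference of 1.2 (limma adjusted p = 0.0235). Against sham the second probe gave log2 differences of -0.69, 0.94 and 1.94 at 3, 12 and 72 h, and the level of the pair correlated at r = 0.999 over the 12 arrays.

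C4b encodes C4, which is cut by the classical and lectin proteases and binds covalently to surfaces. The C4b level was 2.72, 2.51 and 2.66 in sham, 2.47, 2.68 and 3.38 at 3 h, 2.66, 2.47 and 2.32 at 12 h, then 4.19, 3.94 and 3.62 at 72 h. Only the 72 h arrays stood above the rest, while sham, 3 h and 12 h overlapped. The rise at 72 h over sham was 2.44-fold (95% interval of the log2 difference 0.78 to 1.80, limma adjusted p = 0.00387), and over 12 h it was 2.72-fold (limma adjusted p = 0.0027). Over 3 h it was 2.11-fold (limma adjusted p = 0.00629), a call that was lost when some single arrays were left out (lowest log2 difference 0.89). The log2 differences from sham at 3 and 12 h, 0.21 and -0.15, were not called (limma adjusted p = 0.55 and 0.743). The main probe of C4a, a near-identical copy of C4b, had a log2 difference from sham of 1.30 at 72 h and was called, and the signals of the copies cannot be told apart.

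C2 and factor B are the proteases of the convertases, C2 in the classical and lectin pathways and factor B, the product of Cfb, in the alternative pathway. The level of C2 was 0.43, 0.15 and 0.28 in sham, -0.82, -0.53 and -0.34 at 3 h, -0.35, -0.79 and -0.42 at 12 h, then 2.17, 1.1 and 0.59 at 72 h. The 3 and 12 h arrays lay below all sham arrays, and the 72 h arrays lay above them but far apart from one another (SD 0.81). The log2 differences from sham at 3, 12 and 72 h were -0.85, -0.81 and 1.0, and none was called (limma adjusted p = 0.107, 0.118 and 0.06). Without 72 h replicate 3, the lowest of its group, the 72 h difference was 1.34 and was called (limma adjusted p = 0.0147). From 12 to 72 h C2 rose 3.49-fold (limma adjusted p = 0.00532) and from 3 to 72 h 3.6-fold (limma adjusted p = 0.00255). In the order of the C2 means the 3 and 12 h groups were neighbours with a log2 difference of 0.05.

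The Cfb level was 1.90, 2.03 and 2.02 in sham, 1.86, 1.93 and 2.41 at 3 h, 2.82, 2.44 and 2.70 at 12 h, then 3.43, 3.25 and 2.97 at 72 h. Its means climbed in the order of time, with sham and 3 h overlapping and all 72 h arrays above all others. Cfb was 2.35-fold higher at 72 h than in sham (95% interval of the log2 difference 0.84 to 1.63, limma adjusted p = 0.00126). At 12 h it was 1.59-fold higher (limma adjusted p = 0.0221), under the fold threshold. The neighbouring steps, 0.09 from sham to 3 h, 0.58 from 3 to 12 h and 0.56 from 12 to 72 h on the log2 scale, were not called. The probes of C2, Cfb and C4b lay within 134 kb of chromosome 17 (build mm9), in the class III region of the major histocompatibility complex. Of these neighbours C2 and C4b rose from 12 to 72 h, and the Cfb difference between those times was not called (limma adjusted p = 0.0534).

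Cfp encodes properdin, which stabilises the convertase of the alternative pathway and is made mainly by myeloid cells rather than the liver. The Cfp level was 1.23, 1.14 and 1.56 in sham, 1.43, 2.11 and 2.86 at 3 h, 2.65, 2.82 and 2.97 at 12 h, then 4.38, 4.14 and 4.17 at 72 h. The 3 h arrays spread widely (SD 0.71) and overlapped both sham and 12 h, while every 72 h array was above all others. Cfp was 2.84-fold higher at 12 h than in sham (95% interval of the log2 difference 0.85 to 2.16, limma adjusted p = 0.005) and 7.55-fold higher at 72 h (2.27 to 3.57, limma adjusted p = 0.000181). The step from 12 to 72 h was 2.66-fold (limma adjusted p = 0.00928). At 3 h the log2 difference was 0.83 and not called (limma adjusted p = 0.0791); without 3 h replicate 1 it was 1.18 and called (limma adjusted p = 0.00965).

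C6 is a terminal component that takes part in the membrane pore. It was the only member not well above background on all 12 arrays. Its level was -4.89, -5.06 and -4.50 in sham, -5.07, -5.09 and -5.92 at 3 h, -5.66, -5.81 and -5.51 at 12 h, then -3.78, -3.56 and -3.46 at 72 h. The probe was well above background on 3 sham arrays, 1 at 3 h, 0 at 12 h and 3 at 72 h, and the 72 h arrays lay above all the rest. At 72 h it was 2.32-fold higher than in sham (95% interval of the log2 difference 0.69 to 1.74, limma adjusted p = 0.00568). Against 12 h, where it was not measured above background, it was also called higher (limma adjusted p = 0.000547). With 12 h values below each array's floor, the lowest signal of any probe well above background, raised to it, the fold was 3.78. A probe at background can lie above that floor, as C6 did in 12 h replicate 1, so the fold is no strict bound. With the normexp background correction, which compresses dim signals, the 72 h difference from sham was 0.11 and not called (limma adjusted p = 0.107). The difference from 12 h was 0.31 with normexp, under the fold threshold.

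C3ar1 is the receptor for the C3 anaphylatoxin. The C3ar1 level was -2.90, -3.17 and -3.06 in sham, -2.93, -3.18 and -3.15 at 3 h, -2.28, -2.23 and -2.18 at 12 h, then -0.69, -0.70 and -0.65 at 72 h. Sham and 3 h overlapped, and then the level stepped up without overlap at each later time, with the smallest spread of any member at 72 h (SD 0.03). C3ar1 was 5.13-fold higher at 72 h than in sham (95% interval of the log2 difference 2.12 to 2.60, limma adjusted p = 5.17e-06) and 2.92-fold higher than at 12 h (limma adjusted p = 8.38e-05). At 12 h it was 1.76-fold higher than in sham (limma adjusted p = 0.000633), under the fold threshold, and at 3 h the log2 difference was -0.05.

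C5ar1 is the receptor for the C5 anaphylatoxin and is carried in quantity by neutrophils, monocytes and macrophages. The C5ar1 level was -3.01, -3.22 and -3.04 in sham, -0.65, 0.01 and -0.36 at 3 h, 1.79, 1.33 and 1.41 at 12 h, then 0.83, 0.51 and 1.04 at 72 h. No array of one group overlapped another group, and 12 h was highest. C5ar1 was 6.73-fold higher at 3 h than in sham (95% interval of the log2 difference 2.31 to 3.20, limma adjusted p = 3.66e-05), 24.2-fold at 12 h (4.15 to 5.04, limma adjusted p = 2.53e-06) and 14.8-fold at 72 h (3.44 to 4.33, limma adjusted p = 6.73e-06). From 12 to 72 h the log2 difference was -0.71 (limma adjusted p = 0.0356), under the fold threshold. Of the receptors, C5ar1 was thus called against sham at all 3 times and C3ar1 at 72 h.

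With the slide as a block in the limma fit, the share of all genes called at 72 h against sham, in either direction, went from 8.9% to 3.08%. Of the members 3 of 8 stayed called: C3ar1 (log2 difference 2.28, limma adjusted p = 0.000963), C5ar1 (4.04, 0.00134) and Cfp (2.68, 0.0371). The other log2 differences were 2.07 for C3 (limma adjusted p = 0.0822), 1.53 for C4b (0.0924), 1.16 for Cfb (0.0997), 0.98 for C6 (0.248) and 0.84 for C2 (0.457). All 8 differences stayed positive. Between 12 and 72 h C3ar1, C4b and C6 stayed called with the slide as a block, 3 of 5, beside 3.27% of all genes (7.4% without the block). From 3 to 72 h C3 and C3ar1 did, 2 of 8, beside 2.97% of all genes (1115 genes, against 4308 without it). Slide and the 72 h group mostly coincide, and apart from 12 h replicate 3 they cannot be told apart. Within the second slide, the 72 h arrays against that 1 array differed by 1.70 for C2, 1.05 for C3, 1.49 for C3ar1, 1.60 for C4b, -0.61 for C5ar1, 0.51 for Cfb and 1.26 for Cfp on the log2 scale. C6 was not above background on that array. These values rest on a lone 12 h array and are given without a test. Within the first slide 1 member was called at 3 h and 2 at 12 h against sham, the same genes as over all arrays, and from 3 to 12 h 1 was called; C3 there had a log2 difference of 1.67 (limma adjusted p = 0.0648).

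The rest of the complement system was described by 47 further genes. Of these, 21 were called at 1 or more times against sham, 16 higher and 5 lower, and 26 were not called. These counts go by the main probe: 2 of the 26 had another probe that was called, Itgam at 12 h and Cfhr2 at 72 h (1.91, where its main probe gave 0.19). At 3 h 3 of 47 were called higher and 1 lower, beside 3.13% and 4.3% of all genes. At 12 h 5 were higher and 3 lower, beside 3.95% and 5.3%. At 72 h 15 were higher and 3 lower, beside 4.5% and 4.4%. The medians of the list were -0.10, -0.05 and 0.34, beside 0.06, -0.04 and -0.15 over all genes. With the slide as a block, 10 of the 47 were called higher at 72 h and 0 lower, beside 3.08% of all genes in either direction. Those that lost their 72 h call there were C1s2, C4a, Colec10, Cpn1, Masp1, Serping1, Susd4 and Vsig4, and the 72 h calls of these 8 genes below hold without the block only. With normexp 10 of the 47 were called higher at 72 h and 3 lower, beside 3.37% of all genes in either direction. C1rb, C4a, Masp1, Serping1 and Vsig4 lost their 72 h call with normexp, and Cd59b, Hc and Vtn their 12 h call.

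**Figure D2:**
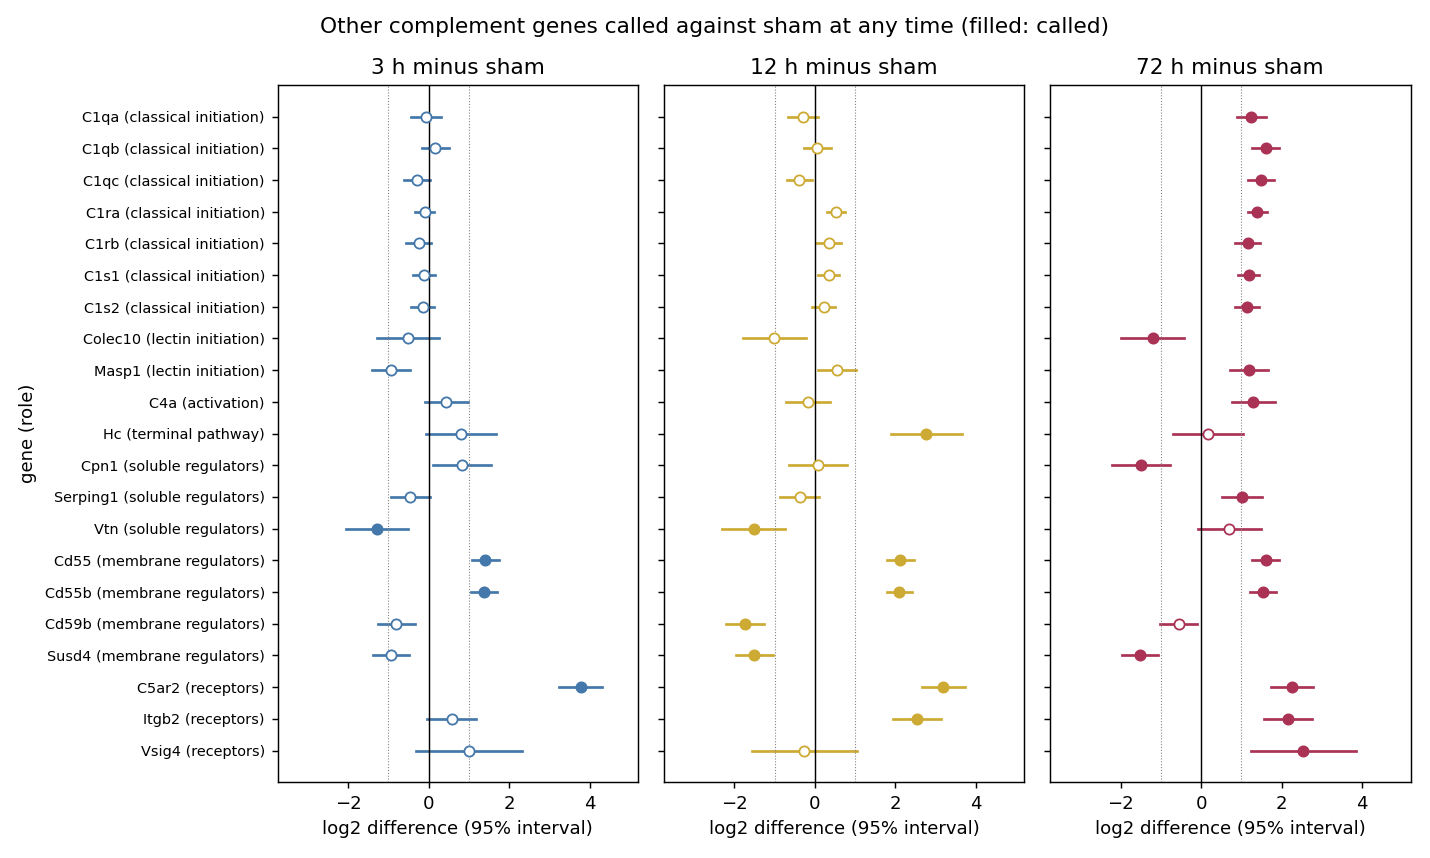
Log2 differences from sham at 3, 12 and 72 h, with 95% intervals, for the 21 other complement genes that were called at 1 or more times, grouped by role. Filled marks are differences called by limma and open marks are not. The dotted lines mark a fold of 2 in each direction. The genes were chosen by these calls, so the plot leaves out the 26 that were not called.

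Of 8 genes that start the classical pathway 7 were called against sham at 72 h, and none at 3 or 12 h. C1qa, C1qb and C1qc, the subunits of C1q, which binds antibody complexes and dying cells, had log2 differences from sham of 1.25, 1.60 and 1.48 at 72 h, all called; the second C1qc probe was above background on 0 arrays. At 3 and 12 h C1qb stood at 0.17 and 0.06. C1ra, C1rb, C1s1 and C1s2, the proteases of the C1 complex, were called at 72 h with differences of 1.40, 1.16, 1.18 and 1.14, while the 1 other C1s1 probe above background in sham and at 72 h gave 0.22. C1rl, a related protease, was not called (0.14 at 72 h). Of the 8 lectin pathway genes 3 were above background on no array by their main probe. Colec10, a collectin, was lower at 72 h (-1.20), a call lost without any single sham replicate, 3 h replicate 2, or 72 h replicate 1 or 2. Masp1, a protease of the lectin complex, was higher (1.18), while of its other 4 probes the 1 above background in sham gave -0.12. Fcna, a ficolin, was not called against sham (0.93 at 72 h), nor was Colec11, which was above background on 0 arrays up to 12 h and 1 at 72 h, and Fcnb was dim in all groups.

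C5 itself, encoded by Hc, was highest at 12 h. Its level was -6.68, -5.24 and -6.48 in sham, -5.14, -5.77 and -5.08 at 3 h, -2.75, -3.63 and -3.70 at 12 h, then -5.68, -5.91 and -6.27 at 72 h. Only the 12 h arrays stood clear of the others, and the probe was well above background on 1, 2, 3 and 1 arrays of the groups in that order. Hc was called higher at 12 h than in sham (limma adjusted p = 0.000891) and lower at 72 h than at 12 h (limma adjusted p = 0.00202). No fold is given, since sham and 72 h lay mostly at background, and the 12 h call was lost with normexp. The main probes of C8a, C8b and C9, further pore components, were above background on no array, and C7 and C8g were not called (-0.48 and -0.53 at 72 h).

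Cfd, the protease that cuts factor B and a major product of fat cells, varied widely. Its level was 2.98, 3.65 and 2.35 in sham, -7.76, 1.34 and -7.54 at 3 h, -8.0, 0.62 and -7.70 at 12 h, then 6.05, 4.23 and -7.98 at 72 h. The probe was above background on 3, 1, 1 and 2 arrays of the groups in that order, so replicates of 1 group lay far apart after injury, and no comparison with sham was called (limma adjusted p = 0.191, 0.176 and 0.705). The fat cell markers were also high in 72 h replicates 1 and 2 and low in replicate 3. Here and below, the summed log2 level of a marker list is the log2 of the sum of its probes' unlogged levels, so the brightest probes weigh most. For the fat cell markers it was 3.94, 4.53 and 3.52 in sham, 3.42, 3.51 and 2.97 at 3 h, 2.84, 3.22 and 2.25 at 12 h, then 6.83, 5.86 and 2.58 at 72 h. That list had 0 of 6 markers called at each time against sham and 1 called higher at 72 h than at 12 h and than at 3 h, the probe of Fabp4 was its strongest at each time, and 3 of 6 were above background on only some arrays. The part of fat tissue in the Cfd values was not tested.

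Among the soluble regulators, Serping1, the inhibitor of the C1 proteases, was 2.02-fold higher at 72 h than in sham (limma adjusted p = 0.00982). Vtn, vitronectin, which blocks the pore, was lower at 3 h (-1.29) and 12 h (-1.52) and not called at 72 h (0.70). The 3 h call was lost without sham replicate 1 or 2 or any single 3 h replicate, and both calls were lost with normexp and with Dunnett's test. Cpn1, a subunit of the carboxypeptidase that trims the anaphylatoxins, was lower at 72 h (-1.48), and its second probe, lower then as well (-1.10), was called higher at 3 h (1.02), where the main probe gave 0.82. Cfi, the protease that cuts C3b, had a 72 h level of -0.72, -2.50 and -7.42, a wide spread, and was not called (limma adjusted p = 0.0692). The Serping1 call was lost without sham replicate 2, sham replicate 3 or 72 h replicate 1, with normexp and with the 2 groups fitted alone. C4bp, a binding protein of C4, was not called (0.92 at 72 h). Without 72 h replicate 3 Cfi and Vtn were called at 72 h. C4bp was called there without 72 h replicate 1 and with quantile normalization.

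Of the 8 membrane regulators, a pair was called from 3 h on. Cd55, decay accelerating factor, which takes convertases apart on host cells, was higher at all 3 times, with log2 differences of 1.41, 2.12 and 1.60 at 3, 12 and 72 h, and its copy Cd55b with 1.38, 2.10 and 1.53. The copies may share signal, and a second Cd55b probe gave 0.36, -0.22 and -0.61. Of 4 Cd55 probes 3 were called at 3 h and 2 at 12 h, where the lowest gave 0.52 and 0.38. Cd59b, an inhibitor of the pore, was lower at 12 h (-1.73), and the main probe of Susd4 was lower at 12 h (-1.50) and 72 h (-1.51). The second Susd4 probe gave -0.03 and -0.46 at those times and was not called. Cd59a was not called, at -0.75, -0.75 and 0.24.

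C5ar2, the second receptor for the C5 anaphylatoxin, was highest at 3 h. Its level was -3.41, -3.91 and -3.41 in sham, 0.26, 0.19 and 0.16 at 3 h, -0.31, 0.03 and -0.87 at 12 h, then -0.98, -1.43 and -1.54 at 72 h. No group overlapped another. C5ar2 was 13.8-fold higher than sham at 3 h, 9.16-fold at 12 h and 4.79-fold at 72 h, and fell by 1.52 on the log2 scale from 3 to 72 h (limma adjusted p = 0.00128). C5ar1 rose over the same interval, by 1.13 (limma adjusted p = 0.00241), although without 3 h replicate 1 the difference was 0.97, under the fold threshold. With the slide as a block the C5ar1 difference was 1.29 and not called (limma adjusted p = 0.0921). The C5ar2 fall likewise compares arrays of different slides. Itgb2, the shared chain of the integrin receptors for cut C3, was higher at 12 h (2.54) and 72 h (2.16). Vsig4, a macrophage receptor for cut C3, was called higher at 72 h, with 2 of 3 arrays above background there and 0 in sham. With sham values below each array's floor raised to it the fold was 1.73, and the call was lost without sham replicate 1. Cr2, a receptor of B cells, was not called (-1.46 at 72 h), nor was the main probe of Itgam (-0.71), whose second probe was called at 12 h (1.42).

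Markers of the cells that carry these receptors moved with time as well. In bulk tissue, fewer cells of a type and less RNA per cell cannot be told apart, and the same holds for more. Of 10 neutrophil markers 7 were called higher at 3 h, 9 at 12 h and 6 at 72 h, and none lower. At 12 h 2 of 10 were higher than at 3 h, and at 72 h 3 were lower than at 12 h and 2 lower than at 3 h. Their summed log2 level was 6.01, 5.81 and 5.99 in sham, 7.94, 8.69 and 8.40 at 3 h, 9.19, 9.14 and 9.14 at 12 h, then 8.26, 7.92 and 8.78 at 72 h. The list was thus highest at 12 h, the time at which C5ar1 was highest. The strongest probe of each list is named below for its share of the sum, as a signal and not as an amount of RNA. For neutrophils it was that of Csf3r in sham and of S100a9 at 3, 12 and 72 h, and 4 of the 10 were above background on only some arrays. The part of neutrophils in the C5ar1 values was not tested.

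Of 10 monocyte and macrophage markers 2 were called higher at 3 h, 6 at 12 h and 7 at 72 h, while 2, 1 and 0 were called lower. At 12 h 5 of 10 were higher than at 3 h, and at 72 h 3 were higher and 2 lower than at 12 h, 7 higher and 1 lower than at 3 h. Their summed log2 level was 6.62, 6.57 and 7.01 in sham, 7.48, 7.73 and 8.17 at 3 h, 8.33, 8.20 and 8.10 at 12 h, then 8.14, 8.12 and 8.32 at 72 h. The strongest probe was that of Lyz2 in sham and at 72 h and of Ly6c2 at 3 and 12 h, and all 10 were above background on all 12 arrays. Against sham, the median log2 difference over these markers grew with time: 0.32 (3 h), 1.26 (12 h), then 1.80 (72 h). Their summed level, by contrast, overlapped between the 12 and 72 h arrays. The part of monocytes and macrophages in the members' values was not tested.

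Of 6 fibroblast markers 0 were called at 3 h, 4 were lower at 12 h and 5 were higher at 72 h, by their main probes. Other probes of Col1a1, Col1a2, Col3a1 and Pdgfra were called lower at 3 h (lowest -1.84, -2.75, -2.33 and -1.02). The summed log2 level was 6.93, 6.89 and 6.79 in sham, 6.47, 6.42 and 6.18 at 3 h, 5.97, 5.99 and 6.09 at 12 h, then 9.36, 8.76 and 8.17 at 72 h, with the probe of Dcn strongest up to 12 h and that of Col1a2 at 72 h, and all 6 above background on every array. Between 12 and 72 h 5 of 6 were called higher, with a median of 3.21, and from 3 to 72 h all 6 were (2.52); 1 was lower at 12 h than at 3 h. Of 5 mesothelial markers 2 were lower at 3 h, 2 lower at 12 h and 2 higher at 72 h. At 72 h 4 of 5 were higher than at 12 h and 4 higher than at 3 h, and 0 were called from 3 to 12 h. No median is given, since Lrrn4 and Upk3b were above background on 0 arrays at 3 and 12 h. Their sum was 0.94, 0.57 and 0.96 in sham, -1.88, 0.49 and 0.91 at 3 h, 0.60, -1.20 and 0.80 at 12 h, then 3.13, 1.84 and 1.70 at 72 h, with the probe of Msln strongest up to 12 h and that of Wt1 at 72 h, and 3 of the 5 above background on only some arrays. The part of these cells in the late rise of the complement genes was not tested.

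Hepatocytes are the main source of plasma complement elsewhere in the body. Of 7 hepatocyte markers 0 were called higher against sham at any time and 1 was lower at each. No median against sham is given, since at 72 h it fell on Fgb, which was above background on no array. Between 12 and 72 h 3 of 7 were called higher, among them Alb with a log2 difference of 1.52, and 1 lower, with a median of 1.14. From 3 to 72 h 2 were called higher and 1 lower, and 1 was lower at 12 h than at 3 h. By their main probes 2 of the 7 were above background on no array. Their summed log2 level was 2.81, 2.88 and 3.30 in sham, 2.69, 2.98 and 3.21 at 3 h, 3.26, 2.74 and 2.31 at 12 h, then 3.25, 2.33 and 2.05 at 72 h, with the probe of Serpina1a the strongest in sham and at 3 and 12 h. It was lower at 72 h than in sham (-1.56), and there the strongest probe was that of Cyp2e1 in replicate 1, Ttr in replicate 2 and Serpina1a in replicate 3. The mean log2 level of the list, in which each marker weighs alike, was -3.19, -3.37 and -3.19 in sham and -2.15, -2.41 and -3.49 at 72 h. Ahsg, another of the markers, was at -4.95, -6.86 and -5.16 in sham and 0.95, -1.28 and -6.78 at 72 h, and was not called (limma adjusted p = 0.169). The part of hepatocyte RNA in the members' values was not tested. Of 8 epithelial markers, with the probe of Car1 strongest in sham and at 3 h and that of Krt8 at 12 and 72 h, 1 was lower at 12 h and 3 at 72 h, and of 5 smooth muscle markers 1 was lower at 3 h and all at 12 and 72 h. At 72 h 2 of 8 epithelial markers were lower than at 12 h and 4 lower than at 3 h (1 was lower at 12 h than at 3 h), and of the smooth muscle markers 0 and 2 were lower. The epithelial sum was 9.81, 9.92 and 9.82 in sham, 10.18, 10.09 and 10.02 at 3 h, 9.76, 9.94 and 9.64 at 12 h, then 8.54, 8.98 and 9.09 at 72 h. The smooth muscle sum, with the probe of Cnn1 strongest at 3 h and that of Acta2 otherwise, was 7.99, 7.94 and 7.81 in sham, 6.87, 7.16 and 7.16 at 3 h, 6.20, 6.29 and 6.90 at 12 h, then 6.25, 6.46 and 6.72 at 72 h. Of 4 endothelial markers 2 were higher at 72 h, with Kdr the strongest probe at each time, and the same count was higher than at 12 h and than at 3 h. Of 6 T and B cell markers 0 were called in any comparison. The endothelial sum was 1.47, 1.52 and 1.42 in sham, 1.30, 1.15 and 1.0 at 3 h, 1.41, 1.20 and 1.37 at 12 h, then 3.01, 2.22 and 1.56 at 72 h. Marker RNA of several cell types thus differed between the groups, and its part in the members' values was not tested.

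As a description over the 12 arrays, which fall into 4 groups, the members' levels were compared with one another and with those of 16588 other genes. Among the members Cfb and Cfp were most alike (Pearson r = 0.94), followed by C3 and Cfb (0.92), and C5ar1 and C2 (-0.0483) were least alike. The genes most like C5ar1 were Mcemp1 (0.994), Mefv (0.992) and Klra2 (0.992). For C3ar1 they were AF251705 (0.984), Qk (0.983) and Gm22 (0.982), and for C3 they were Fli1 (0.981), Fermt3 (0.975) and Hal (0.975). C2 was closest to 2610305D13Rik (0.989), Mmp23 (0.988) and Thbs2 (0.985), and C4b to Trf (0.971), Apoe (0.971) and Fn1 (0.96). Cfb was closest to Gpr137b-ps (0.975), Gpr137b (0.972) and Dram1 (0.972), Cfp to Lbp (0.97), Pdrg1 (0.966) and Nrros (0.966), and C6 to Tmem176a (0.971), Gm10575 (0.943) and Sox4 (0.943).

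Since all 8 members were called higher at 72 h than at 3 h, C3 and C3ar1 also with the slide as a block, their promoters were searched for short motifs of factors known in inflammation. RefSeq windows of 300 bases (250 before the gene start and 50 after, build GRCm38.p6) were at hand for 5 of 8 members, C3, C6, Cfp, C3ar1 and C5ar1, and not for C2, Cfb and C4b. The 4 motifs, read on both strands, were GGANTTTCC (NF-kB type), TTGCNNAA (C/EBP type), TTCNNNGAA (STAT type) and AAANNGAAA (IRF type). They stood in 1.25%, 10.8%, 8.3% and 10.6% of the 32851 windows of the table. Among the 5 members there were matches in C3 (TTGCNNAA, bases -45 to -38 from the start) and C3ar1 (AAANNGAAA, bases -210 to -202). A match is a description of the letters and was not tested as a binding site. The 250 bases before the start of these genes are shown because they hold the matches, in capitals, for C3 at chr17:57228137-57228386 and for C3ar1 at chr6:122856158-122856407, each on the minus strand and read 5′ to 3′.
C3: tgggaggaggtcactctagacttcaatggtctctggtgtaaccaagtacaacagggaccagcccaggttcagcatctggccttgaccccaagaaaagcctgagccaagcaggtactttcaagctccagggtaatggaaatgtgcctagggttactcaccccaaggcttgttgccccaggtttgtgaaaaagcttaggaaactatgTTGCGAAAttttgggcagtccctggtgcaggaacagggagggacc
C3ar1: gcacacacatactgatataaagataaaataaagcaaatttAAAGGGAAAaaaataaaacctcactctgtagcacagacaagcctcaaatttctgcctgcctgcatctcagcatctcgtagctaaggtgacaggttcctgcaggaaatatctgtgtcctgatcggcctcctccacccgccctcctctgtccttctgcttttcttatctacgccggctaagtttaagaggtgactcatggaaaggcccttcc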

How the data were processed

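Total RNA of mouse cecum was measured on 12 one-colour Agilent arrays, 3 each for sham and 3, 12 and 72 h after cauterization. The authors deposited Feature Extraction (version 11.5.1.1) files whose processed signal is an intensity after background subtraction, with flags for spots well above background, and a table that the authors deposited as log2 values shifted to the 75th percentile and centred per probe. The files' own flags, deposited with each spot, are 0 or 1 and carry no unit. The 62976 spots of each array included 3671 controls, which were left out; the remaining 59305, without spots flagged as outliers, were averaged to 56605 probes. The log2 intensity minus the array's 75th percentile was fitted in limma (version 3.58.1, R 4.3.3, and version 1.17.8 of data.table) with 4 group means, and p-values were adjusted by Benjamini-Hochberg over all probes. A call needed a fold above 2 and an adjusted p below 0.05. The fit was tested on simulated data.

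From 60.2% to 65.2% of probes were well above background per array, no spot was saturated, and arrays of a group correlated at r = 0.985 to 0.992. The files named 46291 probes, 44 more were named through RefSeq accessions, and 10270 stayed unnamed. Probe coordinates are on mm9 and the RefSeq tables on GRCm38.p6. The text names all members, every other complement gene called against sham and those with the largest changes in each role, and the 3 genes most correlated with each member; 1 complement gene is not reported here and is in no count of the list. The members and lists were chosen with earlier results of these data known. Alternatives tried were quantile, normexp and other percentile scalings, other filters and thresholds, other probes, the slide or the replicate number as a block, fits within a slide or of 2 groups alone, Dunnett's test, a t-test paired by replicate number, and leaving out each array.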

Additional observations from a re-analysis of the deposited data

Results flagged for a closer look

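Differences between time points after cauterization that passed the limma test of the difference itself are given here as log2 values, with limma adjusted p below 0.05 and fold above 2 for each. From 12 to 72 h these were C2 (1.80), C3ar1 (1.55), C4b (1.44), C6 (2.06) and Cfp (1.41). C6 was at background at 12 h, so its value is no exact difference. With 12 h values below each array's floor raised to it the fold was 3.78, and with normexp the log2 difference was 0.31. From 3 to 72 h they were C2 (1.85), C3 (2.55), C3ar1 (2.41), C4b (1.08), C5ar1 (1.13), C6 (1.76), Cfb (1.15) and Cfp (2.09). C6 was above background on 1 of 3 arrays at 3 h, so its value there is no exact difference, and with normexp it was 0.10. From 3 to 12 h they were C3 (1.61) and C5ar1 (1.84). With the slide as a block C2 and Cfp lost their call from 12 to 72 h, and all but C3 and C3ar1 lost theirs from 3 to 72 h. Groups of 3 arrays were too small to look for a single array far from the others.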

How the results depend on the processing

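The study's methods name a paired t-test for comparisons of 2 groups in general, not for the arrays; it was run paired by replicate number, although the numbers do not pair the samples. With adjustment it called 0 of 37549 genes at 3 h, 2 at 12 h and 0 in each other comparison, so a 0 for any list says nothing of the list. No member changed direction with a call in any alternative; of 1304 member differences recomputed, 15 had another sign, all of them uncalled under both. Of the member differences under alternatives other than leaving out an array, 665 kept their side of the threshold, 8 gained a call and 55 lost one; with an array left out, 569 kept it, 3 gained and 4 lost a call. The tally takes in the adjusted t-test, the fit within the second slide with its 1 array at 12 h, and the fit with no fold threshold. It is therefore no measure of how firm the members' calls are. The cause of these changes was not tested. At 3 h the count of members called, 1, was 0 under the adjusted t-test, and 1 to 2 with an array left out. At 12 h the 2 became 0 with that test and 5 with no fold threshold (2 with any array left out). With no fold threshold C6 was called lower at 12 h, and 21.5% of all genes were called in either direction. At 72 h the 7 became 3 with the slide block and 0 with that test (7 to 8). From 3 to 12 h the 2 became 1 within the first slide, 1 with the 2 groups fitted alone, 1 with the t-test unadjusted and 0 adjusted (2 to 3). From 12 to 72 h the 5 became 3 with the slide block and 0 with the adjusted t-test (5 with any array left out). No count is given within the second slide, which held 1 array at 12 h. From 3 to 72 h the 8 became 2 with the slide block, 4 with the unadjusted and 0 with the adjusted t-test (6 to 8). Smaller moves were, with normexp, 3 at 12 h, 6 at 72 h, 4 from 12 to 72 h and 6 from 3 to 72 h. From 12 to 72 h quantile normalization gave 6, the unadjusted t-test 4, and no fold threshold 5 higher and 1 lower. With no fold threshold 3 were called from 3 to 12 h, and with the mean of all probes 7 from 3 to 72 h.

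Of the other complement genes the 4 called at 3 h became 0 with the adjusted t-test and 8 with no fold threshold (3 to 5), the 8 at 12 h became 5 with normexp and 0 with the adjusted t-test (8 to 9), and the 18 at 72 h became 10 with the slide block and 0 with the adjusted t-test (16 to 20). Their split at 3 h was 3 higher and 1 lower, 3 and 3 with the percentile of detected probes, and 3 and 0 with normexp. With no fold threshold it was 3 and 5 at 3 h. At 12 h the split was 5 and 3, and 4 and 1 with normexp. At 72 h it was 15 and 3, and 10 and 3 with normexp. Over all genes 1176 were called higher and 1615 lower at 3 h against sham, 1254 and 1207 with quantile normalization, and 617 and 216 with normexp. At 12 h the split was 1484 and 1990, then 800 and 554 with normexp; at 72 h it was 1690 and 1651, then 1875 and 1109 with quantile normalization, 839 and 426 with normexp. With the percentile of detected probes it was 2702 and 1454 from 3 to 72 h (2334 and 1974 in the main fit). The direction of most calls over all genes at 3 and 12 h thus turned with the scaling or background correction. The authors' own table correlated with the scanner values at r = 1 after centring of each probe, and its array scaling differed, so 2748, 3385 and 3313 genes were called at 3, 12 and 72 h against sham.

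The replicate block left every count as it was: 1, 2 and 7 members against sham at 3, 12 and 72 h, 2, 5 and 8 members between the times, and 4, 8 and 18 other complement genes. The replicate numbers do not pair the samples: same-numbered arrays deviated from their group means with r from -0.162 to 0.087, and 0 of 18 such pairs were over 0.1. Dim probes limit the C6 values: with normexp its log2 differences were 0.11 at 72 h against sham, 0.31 against 12 h and 0.10 against 3 h.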
